A study of Mus musculus with 8 samples.

Results

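Mature mouse eggs hold messenger RNA for transcription factors that are better known from epithelia and from the trophoblast, the lineage that builds the placenta. The levels of 10 such genes, out of the 24860 genes listed in each library, were followed in eggs of Esrp1 knockout females and in wild-type eggs. The genes were Grhl1, Grhl2, Gata2, Gata3, Tfap2a, Tfap2c, Glis3, Ovol2, Elf3 and Klf4. They were chosen by name with their values in these same libraries already known, so their differences between genotypes are given as a description, without a test. The eggs were MII oocytes, which wait at the second meiotic metaphase for fertilization, from C57BL/6 females on postnatal day 42 (6 weeks of age). The 2 groups were Esrp1-KO, whose genotype is labelled Esrp1-/-, and wild type (WT), with 4 libraries each, described by the submitters as biological replicates. Each library came from a tube of 15 lysed oocytes and was amplified by Smart-seq2, which copies full-length polyadenylated RNA without marking its strand. The labels name neither the Esrp1 allele nor the number of animals behind a tube, so each p-value rests on the spread between tubes, which may be technical.

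ESRP1 is an RNA-binding protein that sets the splicing of many transcripts in epithelial cells. Grainyhead-like (GRHL) factors hold open the enhancers of genes for cell junctions, and OVOL2 represses the mesenchymal genes that oppose them. GATA2, GATA3 and the AP-2 factors TFAP2A and TFAP2C act in the trophoblast and in the skin, while the zinc-finger factor KLF4 acts in barrier epithelia and in pluripotent cells. The egg itself is not an epithelial cell, and most of its transcripts were made during growth and are stored until after fertilization.

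The deposited values are FPKM, reads scaled to transcript length and library total, so levels of different genes can be set side by side. The library totals implied by these values were 24910431 to 32337967 reads in Esrp1-KO and 25018182 to 28932106 in WT. Esrp1 itself averaged 3.30 ± 0.68 FPKM in Esrp1-KO and 17.5 ± 1.42 FPKM in WT (SD, n = 4 each), and its groups did not overlap. All 12 of 12 oocyte markers were read in every library, with summed levels of 9632 to 10680 FPKM in Esrp1-KO and 7826 to 8612 FPKM in WT. Markers of other cells, given at the end, were far lower. WT replicate 1 had the most genes above 0, at 20047, and WT replicate 2 the fewest, at 15201, against 17103 to 18100 in the rest. The values of WT replicate 1 are named below where they matter.

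In 4 of the 10 genes, Grhl1, Glis3, Gata3 and Tfap2c, all 4 Esrp1-KO values lay below all 4 WT values. In the other 6 the groups overlapped, and in none did all Esrp1-KO values lie above. Among all 24860 genes, the groups did not overlap in 18.5%, with all Esrp1-KO values below in 11.9% and above in 6.58%. Because the genes were chosen on this contrast, nothing is read from that count. A mean of 1 FPKM or more was reached by 3 of the 10 genes in Esrp1-KO (Tfap2c, Gata3 and Klf4) and by 5 in WT (the same 3 with Glis3 and Grhl1). Summed over the 10 genes, the level was 16.3, 15.4, 16.3 and 8.78 FPKM in the Esrp1-KO libraries and 49.1, 38.4, 43.7 and 44.0 FPKM in the WT libraries. In a tube of pooled oocytes, fewer oocytes that hold a transcript and less of it in each oocyte cannot be told apart.

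**Figure D1:**
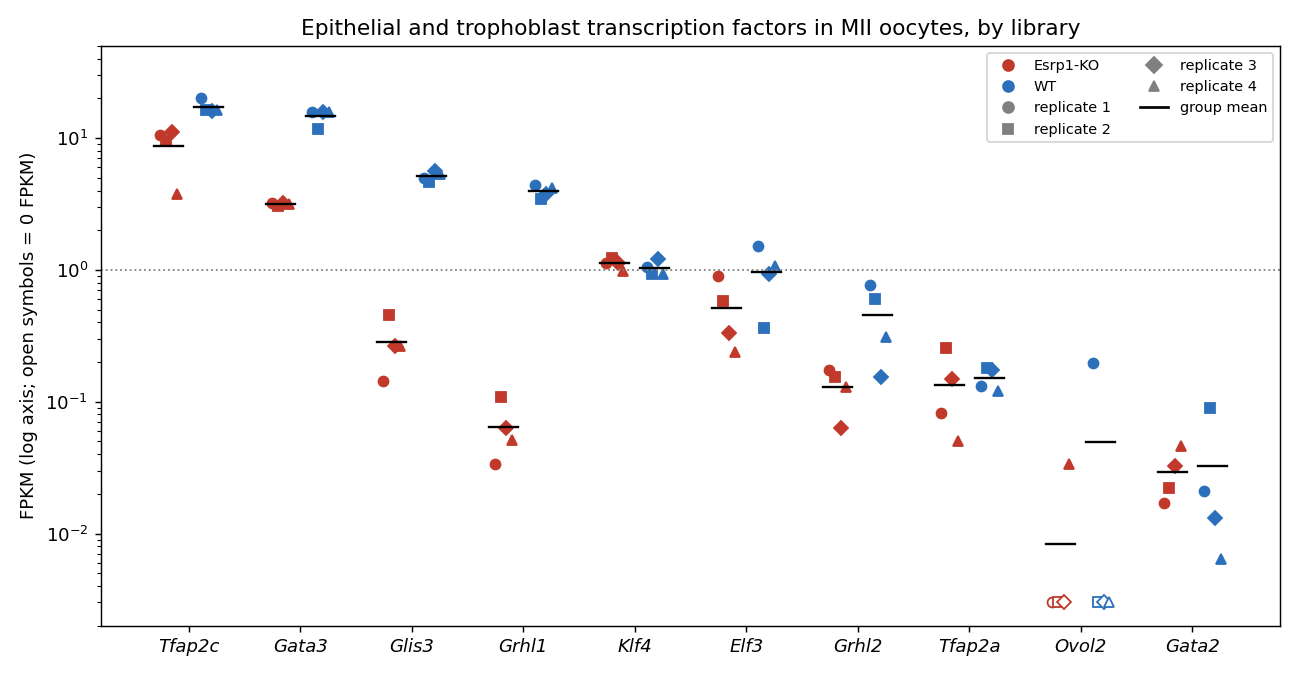
FPKM of the 10 transcription factor genes in each library, on a log axis, with Esrp1-KO (red) left of WT (blue) and short lines at the group means of 4 libraries; open symbols mark values listed at 0. Grhl1, Glis3, Gata3 and Tfap2c are the genes whose Esrp1-KO points all lie below their WT points.

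Grhl1 (chr12:24572283-24617391 in GRCm38, plus strand), a grainyhead-like factor that drives desmosome genes in the epidermis, was nearly absent from the polyadenylated RNA read in Esrp1-KO. It had 0.0335, 0.109, 0.063 and 0.0511 FPKM in the 4 Esrp1-KO libraries, against 4.44, 3.45, 3.77 and 4.16 FPKM in the 4 WT libraries. The highest Esrp1-KO library was far below the lowest WT library, and the Esrp1-KO mean was 1.62% of the WT mean. These values stood for 6, 15, 10 and 8 reads in Esrp1-KO and 648, 478, 588 and 666 reads in WT. Its log2 fold change on log2(FPKM + 1), Esrp1-KO over WT, was -2.22 ± 0.12 (SE), rank 35 from the lowest among the 8021 genes that averaged 1 FPKM or more. The added 1 shrinks the change of so low a gene: on recovered reads the log2 fold change was -6.01. By mean level among all genes Grhl1 stood at rank 14609 in Esrp1-KO and at rank 4863 in WT.

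Its close relative Grhl2, which maintains E-cadherin and claudin genes in epithelia, was low in both groups. It had 0.174, 0.153, 0.0634 and 0.129 FPKM in Esrp1-KO, against 0.764, 0.603, 0.155 and 0.308 FPKM in WT. The groups overlapped only through WT replicate 3, which lay below the highest Esrp1-KO library. The 4 differences between same-numbered libraries were all negative, at -0.59, -0.47, -0.12 and -0.21 on the log2(FPKM + 1) scale. The Esrp1-KO values rested on 31, 21, 10 and 20 reads and the WT values on 111, 83, 24 and 49 reads, worked out with a transcript length that fitted the steps of the values.

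Glis3 (chr19:28258851-28680077, minus strand), a zinc-finger factor related to the GLI proteins that acts in pancreatic beta cells, kidney and thyroid, had a pattern like that of Grhl1. It had 0.143, 0.454, 0.264 and 0.264 FPKM in Esrp1-KO, against 4.97, 4.66, 5.67 and 5.31 FPKM in WT. The groups lay far apart and the Esrp1-KO mean was 5.46% of the WT mean. Its log2 fold change was -2.27 ± 0.12 (SE), rank 28 from the lowest, and -4.31 on recovered reads. Of the 8021 genes, 66 (0.823%) had a log2 fold change of -2 or lower, Glis3 and Grhl1 among them. Both were chosen on this contrast and reached the mean of 1 FPKM only through WT, so nothing is read from their ranks.

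Gata3 (chr2:9857078-9890034, minus strand), which acts in the trophectoderm, in T cells and in hair follicles, was lower in Esrp1-KO but still present. It had 3.24, 3.03, 3.23 and 3.18 FPKM in Esrp1-KO, against 15.8, 11.8, 15.7 and 15.8 FPKM in WT. The 4 Esrp1-KO libraries lay close together, at 21.5% of the WT mean, and the log2 fold change was -1.91 ± 0.13 (SE). Gata2, its partner in trophoblast giant cells and a factor of blood stem cells, was close to 0 in both groups. Its reads numbered 3, 3, 5 and 7 in Esrp1-KO and 3, 12, 2 and 1 in WT, 18 in all in each group. At this depth no difference in Gata2 was detectable.

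Tfap2c (chr2:172549593-172558622, plus strand), an AP-2 factor of trophoblast and germ cells, had the highest level of the 10 genes in both groups. It had 10.6, 9.55, 11.1 and 3.80 FPKM in Esrp1-KO, against 20.2, 16.4, 16.1 and 16.3 FPKM in WT. The groups did not overlap, with an Esrp1-KO mean at 50.7% of the WT mean, but Esrp1-KO replicate 4 lay well below the other 3. The log2 fold change was -0.99 ± 0.27 (SE) and, without that library, -0.68 ± 0.14. Tfap2a, an AP-2 factor of neural crest and skin, was low, with 0.082, 0.254, 0.149 and 0.0505 FPKM in Esrp1-KO and 0.131, 0.179, 0.174 and 0.12 FPKM in WT. The 4 WT values of Tfap2a lay inside the Esrp1-KO range, and each library held 7 to 31 reads of it.

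Elf3, an ETS factor of simple epithelia, and Klf4 had groups that overlapped. Elf3 had 0.893, 0.579, 0.331 and 0.239 FPKM in Esrp1-KO, against 1.52, 0.361, 0.929 and 1.08 FPKM in WT. The groups overlapped, and the same-numbered difference was positive in replicate 2 and negative in the other 3. Klf4 had 1.14, 1.24, 1.13 and 0.986 FPKM in Esrp1-KO, against 1.06, 0.931, 1.21 and 0.93 FPKM in WT. Its ranges nearly coincided, and it was the only one of the 10 genes with a higher mean in Esrp1-KO (log2 fold change 0.06 ± 0.12, SE). Ovol2 was read in 2 libraries only, with 2 reads (0.0335 FPKM) in Esrp1-KO replicate 4 and 11 reads (0.197 FPKM) in WT replicate 1. It was at 0 in the other 6 libraries, and no fold is given. Exons of opposite-strand genes cover 16.99% of Ovol2, 14.6% of Tfap2a and 7.31% of Elf3, so some of their few reads may belong to other genes. Exons of 9230102O04Rik (same strand) and Gm13256 (opposite strand) cover 5.83% of Gata3.

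**Figure D2:**
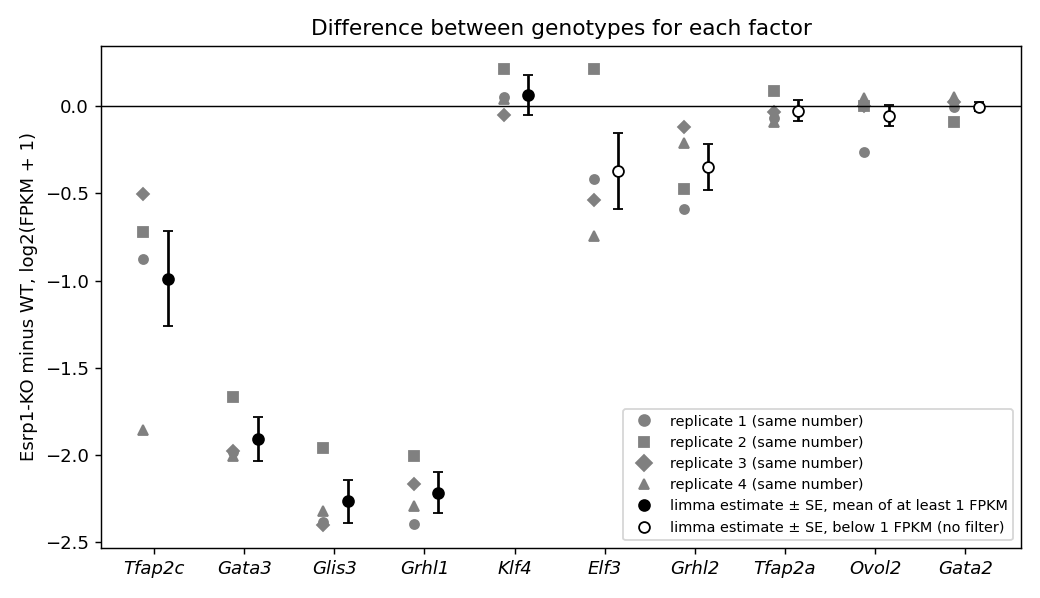
Difference on the log2(FPKM + 1) scale between Esrp1-KO and WT libraries of the same replicate number for the 10 genes (grey, 1 symbol per replicate number), beside the limma estimate ± SE (filled where the mean reached 1 FPKM, open otherwise). The points of Grhl1, Glis3, Gata3 and Tfap2c all lie below 0, with Tfap2c spread from -1.85 to -0.50, while those of Klf4 lie on both sides of 0.

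The order of levels differed between the groups. In Esrp1-KO, Tfap2c, Gata3, Klf4 and Elf3 followed each other with no overlap between neighbours, and the neighbours from Elf3 down (Glis3, Tfap2a, Grhl2, Grhl1, Gata2, Ovol2) overlapped. In WT the order was Tfap2c, Gata3, Glis3, Grhl1 and Klf4 with no overlap between neighbours, and the neighbours from Klf4 down (Elf3, Grhl2, Tfap2a, Ovol2, Gata2) overlapped. Glis3 and Grhl1 thus stood above Klf4 in every WT library and below it in every Esrp1-KO library.

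The differences were also taken within replicates 1 and 4 and within replicates 2 and 3, a grouping chosen after the data were seen. Within replicates 1 and 4 the log2 fold change was -2.34 for Grhl1, -2.35 for Glis3, -1.99 for Gata3 and -1.36 for Tfap2c. Within replicates 2 and 3 it was -2.09 for Grhl1, -2.18 for Glis3, -1.82 for Gata3 and -0.61 for Tfap2c. Of these 4 genes Tfap2c moved most between the pairs, and Esrp1-KO replicate 4, its lowest library, is in the first pair. Over all 8 libraries, the genes with values nearest to those of Tfap2c were Cdc45, Top2a and Abraxas1, with root mean square distances on log2(FPKM + 1) of 0.367, 0.368 and 0.376. For Gata3 they were Zfp640 (0.167), Nip7 (0.204) and Arid4a (0.241), among 6874 genes compared.

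The start regions of the 3 genes with the largest changes are shown as a description. That they were lower together is part of how the genes were chosen, and a shared control was not tested. RefSeq promoters, 250 bases before to 50 bases after the start in GRCm38.p6, were matched for 8 of the 10 genes. None was listed for Grhl2 and Tfap2c. That of Gata3 lies inside the gene span given above and not at its 5′ end, and the start used in eggs was not tested. The table gives 2 promoters for Grhl1, and the upstream one, promoter 1, is shown. Each is given 5′ to 3′ on the strand of its gene, and capitals mark the AP-2 motif GCCNNNGGC, which reads the same on both strands.
Grhl1 promoter 1, chr12:24572037-24572336, plus strand: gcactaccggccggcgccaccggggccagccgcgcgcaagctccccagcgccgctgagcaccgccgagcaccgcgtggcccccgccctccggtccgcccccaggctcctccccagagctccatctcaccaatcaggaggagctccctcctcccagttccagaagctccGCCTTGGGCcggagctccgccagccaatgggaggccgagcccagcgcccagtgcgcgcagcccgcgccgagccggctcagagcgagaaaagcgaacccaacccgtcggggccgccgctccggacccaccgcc
Gata3, chr2:9878551-9878850, minus strand: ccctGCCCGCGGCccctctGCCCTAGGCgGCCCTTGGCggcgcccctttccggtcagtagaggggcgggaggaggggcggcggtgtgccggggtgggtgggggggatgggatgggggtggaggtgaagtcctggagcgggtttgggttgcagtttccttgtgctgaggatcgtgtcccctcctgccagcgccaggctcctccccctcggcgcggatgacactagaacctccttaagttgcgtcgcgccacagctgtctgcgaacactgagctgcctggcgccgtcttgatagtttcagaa
Glis3, chr19:28680028-28680327, minus strand: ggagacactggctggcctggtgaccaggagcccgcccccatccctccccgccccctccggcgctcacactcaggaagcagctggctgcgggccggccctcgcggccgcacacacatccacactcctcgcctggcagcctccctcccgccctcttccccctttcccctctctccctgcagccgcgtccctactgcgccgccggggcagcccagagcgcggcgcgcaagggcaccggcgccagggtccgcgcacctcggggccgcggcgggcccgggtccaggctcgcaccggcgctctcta
Grhl1 promoter 1 held 1 AP-2 motif, the Gata3 promoter 3, and Grhl1 promoter 2 and the Glis3 promoter none. The motif was also in the promoter of Klf4, whose groups overlapped, and in 1 of the 2 promoters of Gata2. It occurs in 16.6% of the 32851 promoters of the table. The other motifs searched on both strands had no match in any promoter of the 8 genes that had one. These were AACCGGTT for GRHL factors (0.146% of all promoters), AGATAA for GATA factors (11.2%) and CCGGAAG for ETS factors (8.86%). CCGTTA for OVOL factors (2.76%), TGGGGGGT for GLIS factors (1.53%) and GGGTGTGG for KLF4 (3.56%) were the rest. A match to these letters is a description and not a bound site. The share of G and C was 75.3% in Grhl1 promoter 1, 67.3% in that of Gata3 and 76.3% in that of Glis3, where the median promoter had 52.7%. High shares were not particular to these genes. Among genes whose groups overlapped it was 74.3% in Klf4, 69.3% and 73.7% in the 2 promoters of Gata2 and 65.7% in Ovol2. Elf3 had 59.0%, and the promoters of Tfap2a had 46.3% and 61.0%. Grhl1 promoter 2, at chr12:24580469-24580768, had 51.3%.

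Relatives of the 10 factors, other genes of the GRHL, GATA, AP-2, GLI and GLIS, OVOL, epithelial ETS and KLF families and their kin, were next compared. Of 38 in the files 14 reached a mean of 1 FPKM, and 4 of these fell, none rose and 10 did not pass (limma, adjusted p of 0.05 over all genes tested). Over all 8021 genes tested 36.9% passed, with 23.1% lower and 13.9% higher, and the median log2 fold change was -0.23 for the relatives and -0.06 for all genes. Quantile normalization brought the directions over all genes close to balance, with 1476 higher and 1534 lower, against 1111 higher and 1850 lower as deposited. Of the relatives, 2 rose and 6 fell with the replicate number as a block. With TMM scaling or quantile normalization 2 rose, Elf1 and Tfap2e, and 4 fell.

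Ehf, an ETS factor of glandular epithelia closely related to Elf3, was the most abundant of the 4. It had 19.8, 28.8, 24.9 and 29.1 FPKM in Esrp1-KO, against 62.3, 63.8, 60.4 and 58.4 FPKM in WT. The groups were well apart, with a log2 fold change of -1.24 ± 0.14 (SE, limma adjusted p = 0.000155). Tfap2b, the AP-2 factor of kidney and neural crest, averaged 0.524 ± 0.18 FPKM in Esrp1-KO and 1.79 ± 0.22 FPKM in WT (SD, n = 4 each, limma adjusted p = 0.000824). Tfap2b reached the mean of 1 FPKM only through WT, and with no filter its limma adjusted p was 0.00316. Tfcp2, a more distant kin of the grainyhead factors, averaged 1.63 ± 0.51 FPKM in Esrp1-KO and 3.12 ± 0.63 FPKM in WT (limma adjusted p = 0.0148). Klf7, a factor of neurons, averaged 5.70 ± 0.34 FPKM in Esrp1-KO and 8.79 ± 1.53 FPKM in WT (limma adjusted p = 0.0133). It shares 38.2% of its 50-base stretches with other genes, and exons of opposite-strand genes cover 39.4% of it, so its value is uncertain. Klf17, a factor of oocytes and early embryos, had by far the highest level of the families, at 237 ± 113 FPKM in Esrp1-KO and 370 ± 101 FPKM in WT, and did not pass (limma adjusted p = 0.122). It passed as lower with the replicate block (adjusted p = 0.00722) and without Esrp1-KO replicate 1 (adjusted p = 0.0225).

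**Figure D3:**
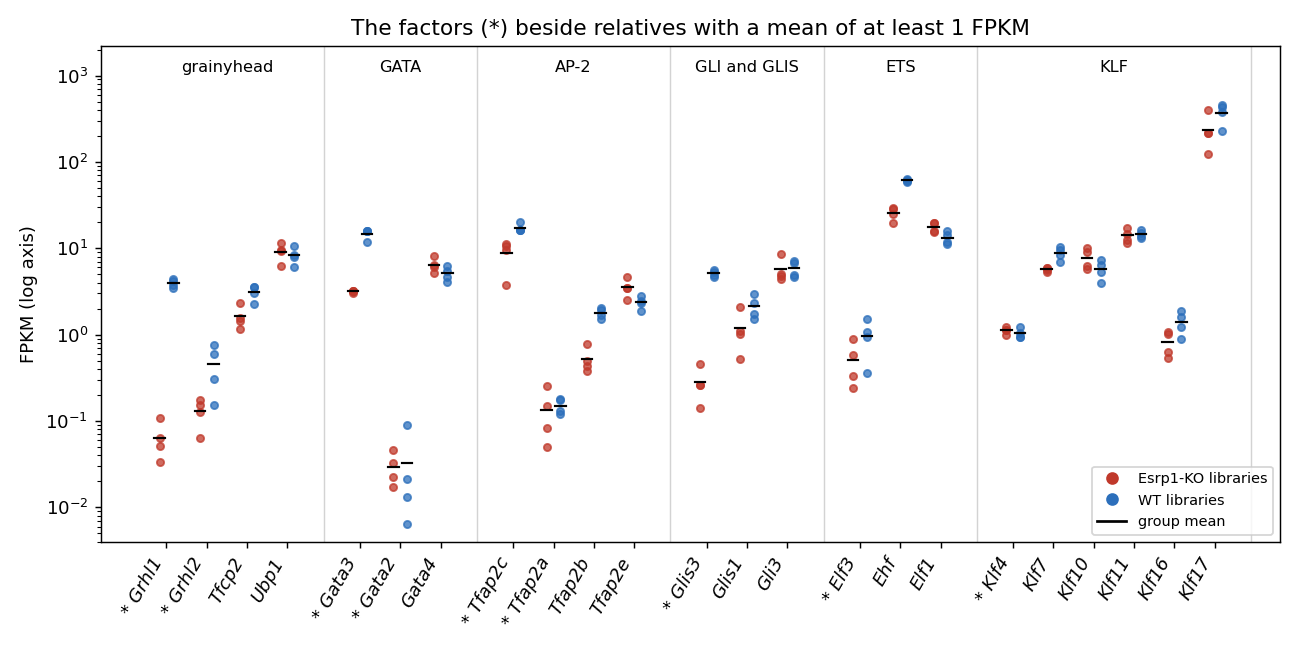
FPKM per library, on a log axis, of the factors (starred, Ovol2 left out) and of their relatives averaging 1 FPKM or more, by family, with Esrp1-KO (red) left of WT (blue) and lines at the group means. Among the relatives, Ehf and Tfap2b show the clearest gap between the groups, and Klf17 has the highest level in both.

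Junction, polarity and protease-inhibitor genes of epithelia, among them reported targets of GRHL factors, were called about as often as genes in general. Of 40 in the files 19 were tested, of which 3 rose, 4 fell and 12 missed the threshold, so 7 of 19 passed where 36.9% of all genes tested did. Their median log2 fold change was -0.09. Prkci, the atypical protein kinase C of apical polarity, fell to 3.21 ± 0.43 FPKM in Esrp1-KO, against 9.11 ± 1.31 FPKM in WT (SD, n = 4 each, log2 fold change -1.26 ± 0.14 SE, limma adjusted p = 0.000124). Cldn4, a tight-junction claudin, fell to 1.67 ± 0.60 FPKM in Esrp1-KO, against 4.19 ± 1.29 FPKM in WT (limma adjusted p = 0.00816). The protease inhibitor Spint1 also fell (limma adjusted p = 0.00906). The related Spint2 fell with groups that overlapped (limma adjusted p = 0.0347), and its call was lost without any 1 of 6 libraries (Esrp1-KO replicates 1, 2 and 3 and WT replicates 1, 3 and 4, adjusted p = 0.0585 to 0.0977). It was lost too with TMM scaling (0.0587), with quantile normalization (0.0736) and with no filter (0.0833).

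The 3 that rose were Patj, Crb3 and Perp. Patj and Crb3, which belong to the Crumbs complex of the apical membrane, rose to 12.99 ± 1.34 and 48.3 ± 4.87 FPKM in Esrp1-KO, against 7.99 ± 0.62 and 29.97 ± 3.52 FPKM in WT (limma adjusted p = 0.00269 and 0.00331). Perp, a desmosome protein, rose with overlapping groups (limma adjusted p = 0.0341). The call of Perp was lost without any 1 of 5 libraries (Esrp1-KO replicates 1 and 4 and WT replicates 2, 3 and 4, adjusted p = 0.0597 to 0.0852) and with no filter (0.102). The E-cadherin gene Cdh1 had 21.4 ± 2.84 FPKM in Esrp1-KO and 22.7 ± 1.64 FPKM in WT and did not pass (limma adjusted p = 0.633). Of 12 mesenchymal genes 2 were tested, and none passed with limma (1 at an unadjusted p of 0.05, none with voom on recovered reads). These were Zeb1, a repressor of epithelial genes (adjusted p = 0.0835), and Tcf3, an E protein (adjusted p = 0.208). Zeb1 passed as higher with quantile normalization (adjusted p = 0.0358) and without Esrp1-KO replicate 1 (adjusted p = 0.0487).

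Most trophoblast regulators were not read at a level that could be tested. Of 34 in the files 7 were tested, and 2 rose, 1 fell and 4 did not pass, so 3 of 7 passed where 36.9% of all genes tested did. Phlda2, an imprinted gene that restrains placental growth, fell to 0.427 ± 0.42 FPKM in Esrp1-KO, against 3.47 ± 0.42 FPKM in WT (SD, n = 4 each, log2 fold change -1.69 ± 0.19 SE, limma adjusted p = 0.000183). Phlda2 reached the mean of 1 FPKM only through WT, the group where it was high. With no filter its limma adjusted p was 0.00156. Pparg, a nuclear receptor of placenta and fat, rose to 40.4 ± 6.73 FPKM in Esrp1-KO, against 21.5 ± 1.79 FPKM in WT (limma adjusted p = 0.00118). Cited2, a co-regulator needed for the placenta, rose with overlapping groups (log2 fold change 1.06 ± 0.33 SE, limma adjusted p = 0.03). Leaving out WT replicate 1 ended this call (0.78, adjusted p = 0.0618), as did leaving out WT replicate 2 (0.0751), Esrp1-KO replicate 1 (0.0714) or Esrp1-KO replicate 4 (0.0755), or testing all genes with no filter (0.0984).

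Of the 6 pluripotency genes tested none passed with limma (1 at an unadjusted p of 0.05, and 1, Lin28b, with voom on recovered reads), among them Pou5f1 (adjusted p = 0.28) and Lin28b (adjusted p = 0.0542). Dppa5a, which shares 38.6% of its 50-base stretches with other genes, did not pass (adjusted p = 0.135), but did with the replicate block (adjusted p = 0.0329) and without Esrp1-KO replicate 1 (adjusted p = 0.0252).

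**Figure D4:**
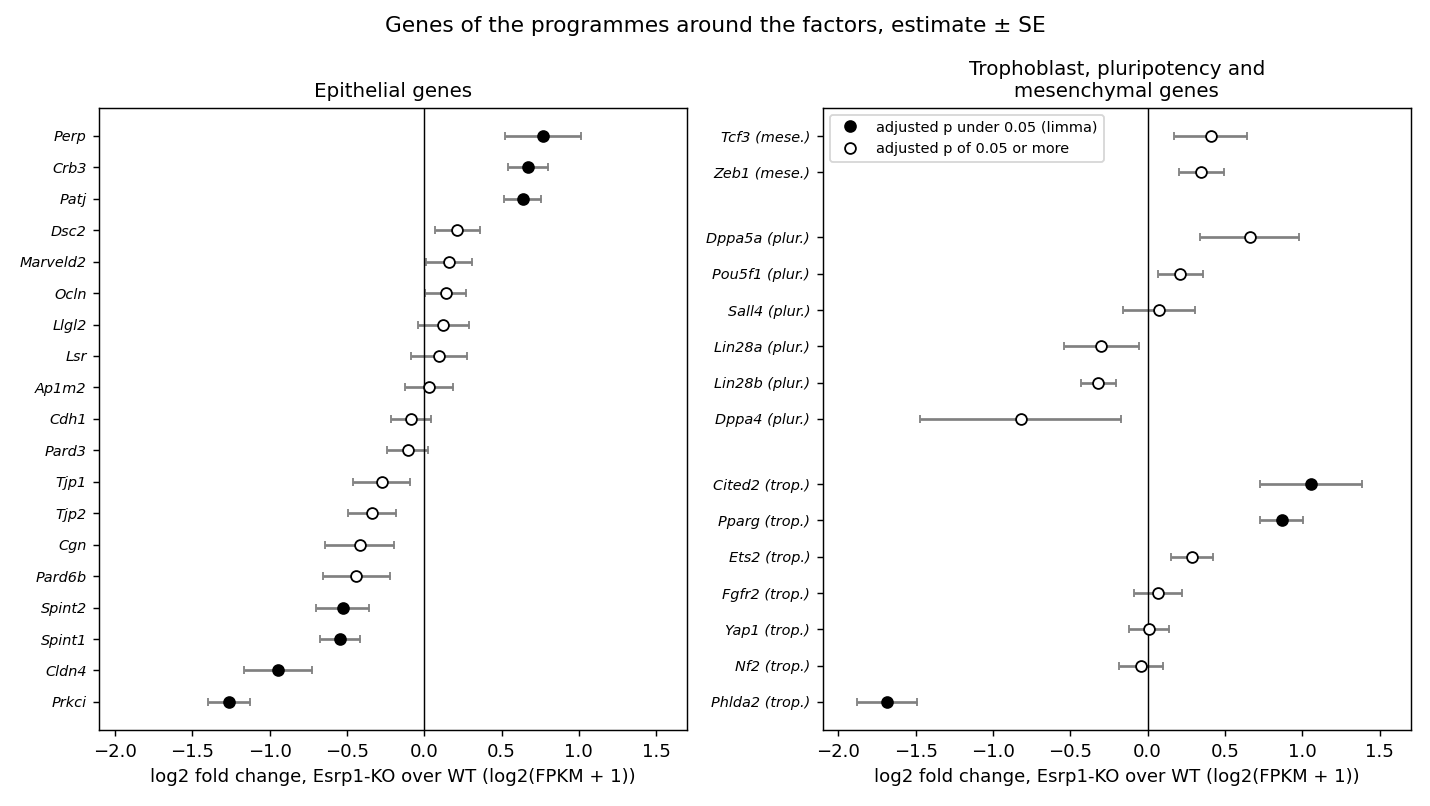
Log2 fold change (Esrp1-KO over WT, log2(FPKM + 1) scale, ± SE) of the tested epithelial, mesenchymal, trophoblast and pluripotency genes, with filled points for a limma adjusted p under 0.05 and open points for the rest. Prkci and Phlda2 are the lowest of their lists and Cited2 and Pparg the highest of the trophoblast list.

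Markers of other cells were low beside the oocyte sum, and some moved with the genotype. The 10 cumulus and granulosa markers of 12 found in the files summed to 1.86 to 2.92 FPKM in Esrp1-KO and 5.71 to 7.29 FPKM in WT, and the groups did not overlap. Most of this was Cyp19a1, the aromatase gene (limma adjusted p = 0.00012), while Fshr, Ptx3, Nr5a1 and Tnfaip6 were at 0 in all WT libraries. In Esrp1-KO, Tnfaip6 was read in replicate 2 (0.235 FPKM), Ptx3 in replicate 1 (0.0231 FPKM) and Fshr in replicate 3 (0.0168 FPKM). Another marker of this list, Ptgs2, a prostaglandin synthase, lay the other way, with 0.198 to 0.51 FPKM in Esrp1-KO and 0.0233 to 0.175 FPKM in WT, too low to be tested. The 10 trophectoderm markers of 12 summed to 8.41 to 14.4 FPKM in Esrp1-KO and 14.8 to 18.6 FPKM in WT. Of 3 tested, Dppa1 and Atp1b1 were lower in Esrp1-KO, where 23.1% of all genes tested were lower. The other, Fgfr2, did not pass, at 6.45 ± 0.91 FPKM in Esrp1-KO and 6.15 ± 1.21 FPKM in WT (SD, limma adjusted p = 0.771). Krt8, Krt18, Cdx2 and Eomes were at or near 0. The part of either list in the values of the 10 factors was not tested.

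The 12 immune markers summed to 5.13 to 14.8 FPKM in Esrp1-KO, highest in replicate 3, and to 3.91 to 5.58 FPKM in WT. Of 3 tested, H2-Aa, an antigen-presentation gene, rose to 1.62 ± 0.34 FPKM in Esrp1-KO, against 0.811 ± 0.12 FPKM in WT (SD, n = 4 each, limma adjusted p = 0.0124). H2-Aa reached the mean of 1 FPKM only through Esrp1-KO, the group where it was high. Grhl1, Glis3, Gata3 and Tfap2c in Esrp1-KO replicate 3 lay within the range of the other Esrp1-KO libraries or, for Tfap2c, just above it. The 7 ovarian surface and tubal epithelium markers of 12 summed to 0.618 to 1.35 FPKM in Esrp1-KO and 0.559 to 3.26 FPKM in WT, highest in WT replicate 1. The 12 markers of the 2-cell embryo summed to 33.7 to 45.6 FPKM in Esrp1-KO and 32.7 to 49.97 FPKM in WT. Of 3 tested, Tcstv3 rose (limma adjusted p = 0.0191), a call that ended when WT replicate 4 was left out (adjusted p = 0.0544) or no filter was used (adjusted p = 0.0611). Of the 11 oocyte markers tested 6 rose, 4 did not pass and 1 fell, the kinase gene Mos (limma adjusted p = 0.00175). Those that rose were Zp1, Zp2, Zp3, Nobox, Padi6 and Zar1 (limma adjusted p = 0.000176 to 0.0232). Over all genes tested 13.9% rose and 23.1% fell.

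WT replicate 1 also held transcripts that no other library held at a like level. Of 202 genes in all lists together, 14 had at least 0.1 FPKM there and over 5 times the next highest library, against 0 to 3 in any other library. This rule, and the genes named by it, were chosen after the values were seen. They include Klf5 (1.96 FPKM), Tead4 (0.917 FPKM), Hand1 (0.456 FPKM) and Dppa4 (11.4 FPKM, 31.3% of its 50-base stretches shared), factors of trophoblast or pluripotent cells, as well as Ovol2. Klf9 (0.941 FPKM), F11r (2.12 FPKM) and Arhgef19 (0.134 FPKM), from the family and epithelial lists, were also among them. Other trophoblast and pluripotency genes, Cdx2 (0.0335 FPKM), Eomes (0.0274 FPKM) and Nanog (0.0676 FPKM), were near 0 in WT replicate 1. A cell type behind these values was not tested. Without WT replicate 1, Ovol2 was at 0 in every WT library. Without it the log2 fold change was -2.17 for Grhl1, -2.28 for Glis3, -1.88 for Gata3 and -0.91 for Tfap2c, close to the values over all libraries.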

How the data were processed

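RNA was measured in 4 Esrp1-KO and 4 WT tubes of 15 MII oocytes with Smart-seq2, which primes on poly(A) tails. The authors deposited FPKM per gene and library, per the file headers, made on GRCm38, per the submitters' processing notes. No source used here names the aligner, counter or annotation. Ensembl IDs were matched to GENCODE M21 symbols (24812 of 24860). The members and gene lists were chosen with earlier results of these data known.

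The 8021 genes averaging 1 FPKM or more were compared by genotype alone on log2(FPKM + 1), pseudocount 1, in limma 3.58.1 (R 4.3.3, trended eBayes, two-sided) with Benjamini-Hochberg adjustment at 0.05. The fit was tested on simulated data. Tables and figures were made with Python 3.11.15, pandas 2.3.3 and matplotlib 3.10.9. FPKM fell on whole reads for 90.03% to 90.62% of values above 0 (tolerance 0.02 of a read), and the reads of 24480 genes recovered so gave a voom alternative. They hold PCR copies, so they limit counting error only. A gene at 0 allows up to 3 reads.

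Same-numbered libraries deviated together (correlations 0.226 to 0.317 in all 4 pairs, numbers from the labels), while unlike numbers reached 0.402 (Esrp1-KO 1 with WT 4) and 0.252 (Esrp1-KO 2 with WT 3). The replicate block was run as an alternative beside pseudocount, filter, TMM, quantile and left-out-library settings. No label gives a shared animal or day.

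Named were the 10 genes and Esrp1, up to 4 tested genes with the smallest p of each list, the 3 highest markers of each marker list, and for Tfap2c and Gata3 the 3 tested genes nearest by root mean square difference, with predicted loci left out. Other genes named, such as Cldn4, Spint1, Spint2, Perp, Cdh1, Klf17 and those standing apart in 1 library, were picked with their values in view. Some genes of the rule are not described.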

Additional observations from a re-analysis of the deposited data

Results flagged for a closer look

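Of 94 groups of 4 libraries looked at, 12 had a library whose gap to its nearest neighbour took up more of the group's range than Dixon's 95% critical value. Chance flags about 1 in 20 groups. Among the 10 factors these were Gata3 in WT replicate 2 (11.8 FPKM, below the other 3), Tfap2c in WT replicate 1 (20.2 FPKM, above the others), and Ovol2 in Esrp1-KO replicate 4 (0.0335 FPKM) and WT replicate 1 (0.197 FPKM), where the other libraries were at 0. Tfap2c in Esrp1-KO replicate 4 was not among them.

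WT replicate 1 was also high for Dppa4 (11.4 FPKM), Epcam (2.64 FPKM), an epithelial adhesion gene, and Eif1ad (5.54 FPKM), a gene of the 2-cell embryo list. Esrp1-KO replicate 3 was high for the macrophage gene Cd68 (3.50 FPKM). Esrp1-KO replicate 4 was low for Crb3 (41.1 FPKM) and high for Fgfr2 (7.81 FPKM), a trophectoderm marker. Esrp1-KO replicate 1 stood apart for Tcf3 (5.61 FPKM), and WT replicate 3 was low for Patj (7.07 FPKM). The group calls of Crb3 and Patj held without any single library.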

How the results depend on the processing

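The log2 fold changes of Grhl1, Glis3, Gata3 and Tfap2c were negative under all 17 alternatives, from -6.01 to -2.09, -4.31 to -2.18, -2.19 to -1.82 and -1.36 to -0.61, and that of Klf4 was positive, from 0.04 to 0.20. With the replicate block, Grhl1 kept -2.22 and Tfap2c -0.99, 3406 genes passed (2961 without it), and 8 relatives and 1 pluripotency gene passed instead of 4 and 0. It changed no other list's count by over 1.5 times. A mean of at least 0.1 FPKM gave 7 relatives, 2 mesenchymal genes (0 as reported) and 8 of the 10 factors present in WT (5 as reported). These mesenchymal genes were Snai2, higher in Esrp1-KO (mean 0.621 against 0.117 FPKM in WT), and Tcf4, lower (0.0136 against 0.247 FPKM). Mesenchymal calls were 1 with no filter and 1 with quantile normalization, and 1 pluripotency gene passed with voom. With replicates 2 and 3 alone, chosen after seeing the data, 1448 genes, 2 relatives and 4 epithelial genes (7 as reported) passed. With replicates 1 and 4 alone, also chosen then, 4 epithelial genes passed and 7 of the 10 factors did not overlap (4 as reported, where the smaller groups overlap less easily). Leaving out 1 library gave 2383 to 2866 genes, 4 to 6 relatives, 5 to 7 epithelial, 0 to 1 mesenchymal, 2 to 3 trophoblast and 0 to 1 pluripotency genes, 4 to 5 factors without overlap and 4 to 6 present. The share of all genes without overlap was counted only over all 8 libraries, so nothing is read from the 7 or from the 4 to 5 factors. The cause of these shifts was not tested. Depth limits Gata2, Ovol2 and Tfap2a, with at most 31 reads per library.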
